A study of Mus musculus with 10 samples.

Results

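The 54 genes described here act in mitosis and chromosome segregation. They were taken by name, as a fixed list of cyclins, mitotic kinases, checkpoint, kinetochore, spindle, cytokinesis, anaphase and condensin genes with a pair of transcription factors, and no expression value of these libraries is part of that rule. The list was still chosen with earlier results of these data known. All 54 are among the 35375 features of the count table, and all 54 passed the filter on low counts that left 19511 features. The smallest count of any of them in any library was 515 and the largest was 418572.

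A cell that enters mitosis activates Cdk1 with its A- and B-type cyclins, condenses its chromosomes, attaches them to spindle microtubules through the kinetochores, and holds anaphase back through the spindle assembly checkpoint until every chromosome is attached. Most genes of this program are transcribed in G2 and M phase under Myb-MuvB and Foxm1, and in resting cells the DREAM complex keeps them low. In the thymus the dividing cells are mainly immature thymocytes after β-selection and early double-positive cells, while late double-positive and mature single-positive cells rest. Whole thymus RNA was sequenced, so more dividing cells and more RNA of these genes per cell cannot be told apart.

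The libraries were made from thymus of C57BL/6J mice 3 days after birth, after removal of ribosomal RNA. Usp7, which encodes a deubiquitinating enzyme, was knocked out in the hematopoietic system on both alleles (homozygous KO, n = 3) or on 1 allele (heterozygous KO, n = 3), and the control group was wild type (n = 4). The labels do not name the driver of the deletion, and stromal cells of the thymus lie outside the hematopoietic system. The series counts wild types with and without cre, without saying which library is which. In the count table the columns of wild types 3 and 4 carry the word het beside wt, while those of wild types 1 and 2 carry wt 2 times, and what these words stand for is not stated. Usp7 itself was at 302.6, 421.6 and 408.1 CPM in homozygous KO, 472.0, 515.6 and 516.2 CPM in heterozygous KO and 676.5, 670.3, 594.4 and 589.2 CPM in wild type. All homozygous KO libraries lay below all heterozygous KO libraries, and these below all wild types. The log2 fold change was -0.74 ± 0.11 (SE) in homozygous KO against wild type, with an adjusted p of 0.000525, and -0.34 ± 0.11 in heterozygous KO, with an adjusted p of 0.608. Library totals ran from 39.8 to 122 M counts, and the shallowest libraries were wild types 1 and 2. Xist, which marks female tissue in mice, was high in 3 of the 4 wild types, in 1 of the homozygous KO libraries and in no heterozygous KO library.

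In homozygous KO the mitotic genes were higher nearly throughout. Of the 54 genes, 51 rose against wild type, none fell and 3 were not called, in a comparison that called 25.8% of all tested genes, 12.5% as higher and 13.2% as lower. The log2 fold change was above 0 for 54 of 54 genes, with a median of 0.51 against -0.01 over all tested genes, and it ran from 0.23 for Pttg1 to 0.97 for Gtse1. On the linear scale the median was 1.43-fold and the largest 1.96-fold. In 50 of the 54 genes all 3 homozygous KO libraries lay above all 4 wild types, which held for 16.3% of all tested genes. The 54 genes were read in the same 10 libraries, so they are not 54 separate observations of the knockout. The test was edgeR's quasi-likelihood test with Benjamini-Hochberg adjustment over all 19511 features, and a call is an adjusted p under 0.05. CPM are counts per 1e+06 counts of a library after TMM scaling. With only wild types 1 and 2, whose titles carry 2 wt words, as controls, 27 of the 54 genes were called. With only wild types 3 and 4 it was 37. Each of these fits had 2 wild types in place of 4, and the share of all tested genes they called is not given here. The median log2 fold change of the 54 genes was 0.467 in the first and 0.57 in the second.

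**Figure D1:**
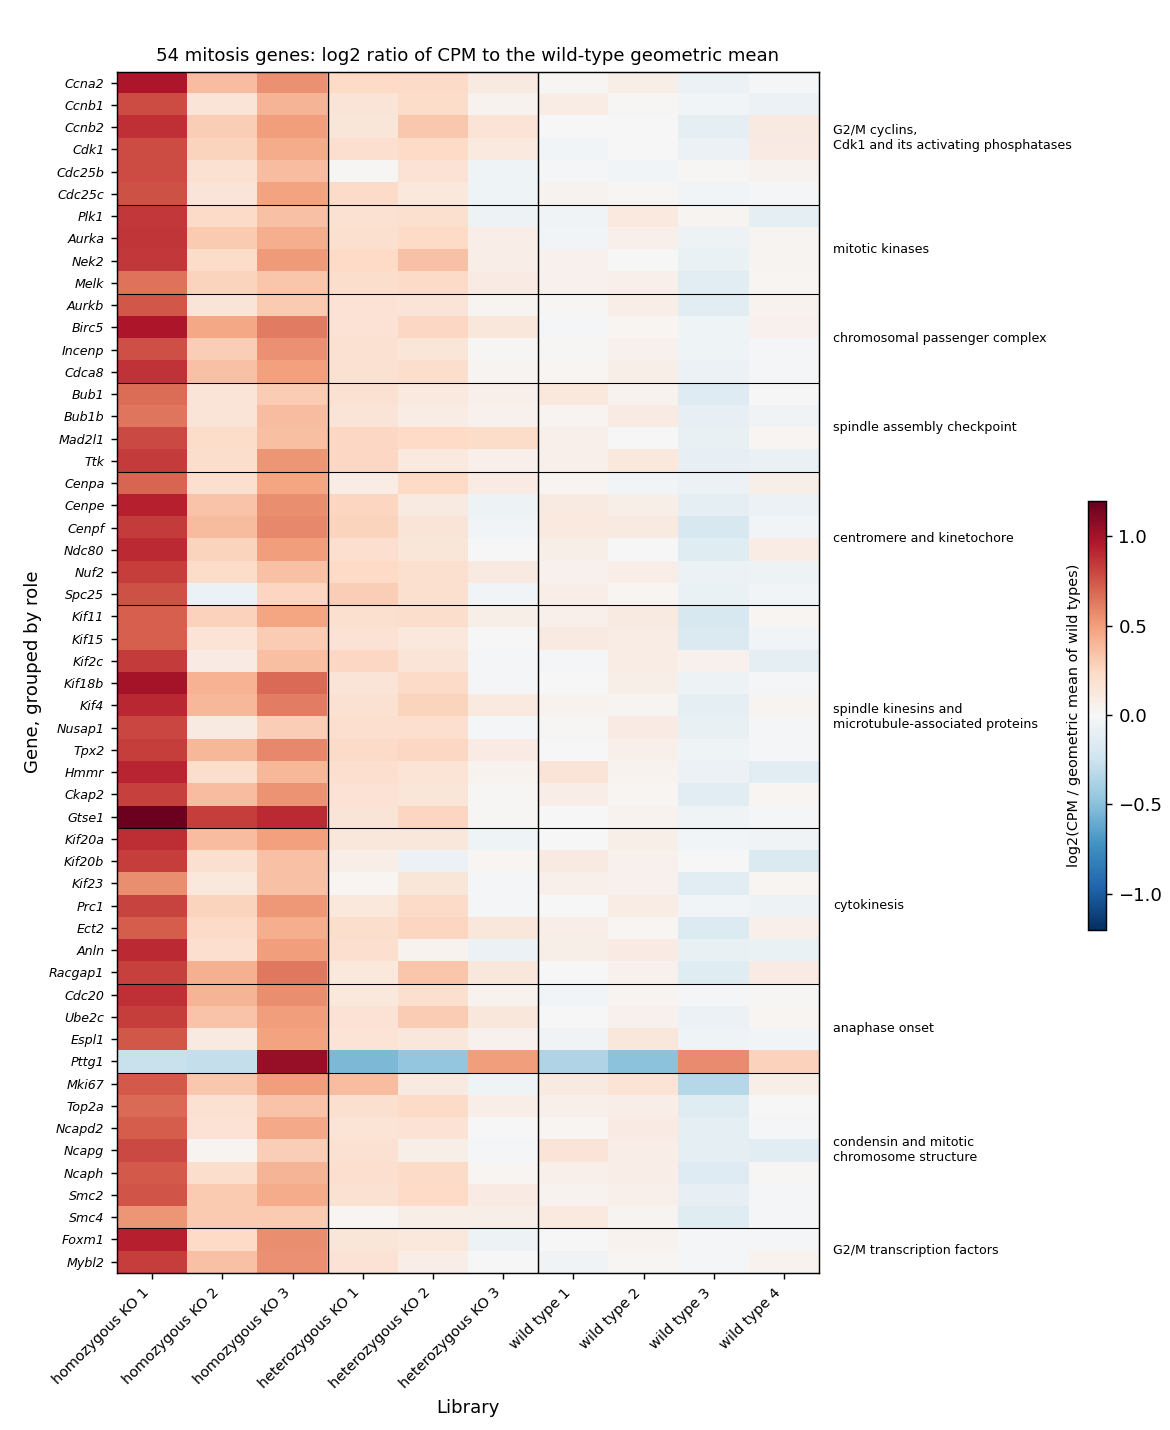
Level of each of the 54 genes (rows, grouped by role) in each of the 10 libraries (columns), as the log2 ratio of its CPM to the geometric mean of the 4 wild types. Homozygous KO 1 is the darkest column, with a median ratio of 0.82, and Pttg1 is the row whose pattern departs from the others.

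The promoters of the genes were read because the genes moved together and because many mitotic genes share 2 known elements. These are the cell-cycle genes homology region (CHR, searched as TTTGAA on both strands), which MuvB complexes bind, and the CCAAT box (searched as CCAAT on both strands), which NF-Y binds. RefSeq promoter windows of build GRCm38.p6, from 250 bases before to 50 bases after each start, were at hand for 46 of the 54 genes. A CHR lay in the window of 32 of the 46 genes (69.6%), against 14.8% of the 11974 tested genes with a window and 20.2% of all 27025 genes with one. A CCAAT box lay in 33 of the 46 (71.7%), against 42.0% and 41.1%, and both elements in 27 of the 46 (58.7%), against 5.9% and 7.97%. At least 2 CCAAT boxes were found in 21 of the 46 (45.7%), against 15.4% and 13.3%. The palindrome TTTAAA, a variant of the CHR that does not overlap TTTGAA, was in 10 of the 46 (21.7%), against 11.4% and 14.9%. Genes with a CHR and genes without one stood close in homozygous KO against wild type, at median log2 fold changes of 0.52 in the 32 genes that hold one and 0.47 in the 14 that do not, a difference that was not tested.

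Promoters with both elements are shown for Ccnb2, Cdk1 and Cdc20. Gtse1 and Birc5 follow because they had the smallest p of the 54 genes, and Pttg1 because its levels departed from the rest. Capitals mark the CHR, its palindromic variant and the CCAAT box, each on either strand. A CCAAT box on the other strand reads ATTGG. Each sequence runs 5′ to 3′ in the direction of transcription, with its position in GRCm38.p6. Ccnb2 is at chr9:70421505-70421804 on the minus strand, Cdk1 at chr10:69352863-69353162 on the minus strand, Cdc20 at chr4:118437294-118437593 on the minus strand, Gtse1 (the first of its windows) at chr15:85859457-85859756 on the plus strand, Birc5 at chr11:117848987-117849286 on the plus strand and Pttg1 at chr11:43425932-43426231 on the minus strand.
Ccnb2: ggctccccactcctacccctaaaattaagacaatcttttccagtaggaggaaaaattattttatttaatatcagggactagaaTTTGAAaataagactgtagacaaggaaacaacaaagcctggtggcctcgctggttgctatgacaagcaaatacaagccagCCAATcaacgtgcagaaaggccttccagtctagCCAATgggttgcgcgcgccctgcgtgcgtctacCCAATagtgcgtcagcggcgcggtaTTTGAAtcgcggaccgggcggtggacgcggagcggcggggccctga
Cdk1: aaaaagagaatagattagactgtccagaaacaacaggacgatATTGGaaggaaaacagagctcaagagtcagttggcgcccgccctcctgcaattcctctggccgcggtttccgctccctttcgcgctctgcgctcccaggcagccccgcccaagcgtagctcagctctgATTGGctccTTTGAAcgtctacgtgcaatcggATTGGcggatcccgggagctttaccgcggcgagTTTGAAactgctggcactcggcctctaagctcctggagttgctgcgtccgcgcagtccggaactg
Cdc20: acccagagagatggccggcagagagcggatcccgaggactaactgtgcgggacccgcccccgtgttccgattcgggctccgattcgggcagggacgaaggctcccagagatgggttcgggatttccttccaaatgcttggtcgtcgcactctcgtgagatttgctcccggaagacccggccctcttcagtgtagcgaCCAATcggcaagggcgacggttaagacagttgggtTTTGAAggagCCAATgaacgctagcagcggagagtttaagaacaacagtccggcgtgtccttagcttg
Gtse1: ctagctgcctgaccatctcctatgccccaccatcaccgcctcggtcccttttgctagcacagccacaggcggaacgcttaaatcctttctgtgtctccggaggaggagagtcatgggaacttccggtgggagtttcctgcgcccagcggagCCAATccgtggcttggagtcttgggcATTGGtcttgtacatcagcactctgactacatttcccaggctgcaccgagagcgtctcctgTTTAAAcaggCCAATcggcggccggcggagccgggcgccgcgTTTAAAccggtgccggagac
Birc5: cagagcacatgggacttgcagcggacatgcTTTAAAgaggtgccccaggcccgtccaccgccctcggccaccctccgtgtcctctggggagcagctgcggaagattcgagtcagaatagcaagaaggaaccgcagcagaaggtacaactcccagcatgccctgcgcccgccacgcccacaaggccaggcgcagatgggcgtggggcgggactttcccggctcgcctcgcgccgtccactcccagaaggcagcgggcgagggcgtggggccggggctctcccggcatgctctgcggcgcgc
Pttg1: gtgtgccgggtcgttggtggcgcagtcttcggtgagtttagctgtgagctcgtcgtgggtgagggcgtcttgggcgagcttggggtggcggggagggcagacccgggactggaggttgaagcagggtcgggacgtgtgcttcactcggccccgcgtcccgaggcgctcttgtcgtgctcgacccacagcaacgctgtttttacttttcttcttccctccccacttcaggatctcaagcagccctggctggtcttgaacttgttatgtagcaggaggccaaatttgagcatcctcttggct
The Ccnb2 window holds 2 CHR and 3 CCAAT boxes, the second CHR 5 bases after the start. In Cdk1 the 2 CHR begin 71 and 15 bases before the start, among 3 CCAAT boxes. The CHR of Cdc20 begins 18 bases before the start, between 2 CCAAT boxes. Gtse1, the gene with the largest fold change, has no TTTGAA in this window but 2 TTTAAA and 3 CCAAT boxes. Birc5, behind Gtse1 and Kif18b by fold change, has 1 TTTAAA and no CCAAT box, and the window of Pttg1 has none of the 3 motifs. These are matches of letters, and binding was not measured here.

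The cyclins, Cdk1 and its activating phosphatases rose in 6 of 6 genes, with a median log2 fold change of 0.50. Ccnb1, the cyclin B that carries Cdk1 into mitosis, was at 294.9, 191.0 and 226.4 CPM in homozygous KO, 190.2, 198.8 and 176.4 CPM in heterozygous KO and 182.1, 172.9, 166.9 and 163.4 CPM in wild type. The homozygous KO libraries lay above the wild types without overlap, homozygous KO 1 far above the other two. The log2 fold change was 0.47 ± 0.12 (adjusted p = 0.0121). Cdk1, the kinase itself, was at 229.3, 159.9 and 181.3 CPM in homozygous KO, 152.9, 156.9 and 144.2 CPM in heterozygous KO and 130.1, 133.9, 126.9 and 142.3 CPM in wild type. Here the 3 groups did not overlap, in the order homozygous KO, heterozygous KO, wild type, and the value for homozygous KO over wild type was a log2 fold change of 0.51 ± 0.100 (adjusted p = 0.0034). Ccna2, the A-type cyclin of S and G2 phase, rose by 0.65 on the log2 scale, and Ccnb2 by 0.58. Cdc25b and Cdc25c encode phosphatases that remove the inhibitory phosphates from Cdk1, and they rose by 0.46 and 0.49.

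All 4 mitotic kinases rose, with a median of 0.52. Plk1, which acts in centrosome maturation, mitotic entry and cytokinesis, was at 237.4, 154.4 and 168.7 CPM in homozygous KO, 149.5, 150.6 and 126.6 CPM in heterozygous KO and 128.4, 143.1, 134.8 and 122.3 CPM in wild type. Its lowest homozygous KO library was above its highest heterozygous KO and wild-type libraries, by a small margin, and the log2 fold change against wild type was 0.50 ± 0.13 (adjusted p = 0.0148). Aurka, the centrosomal Aurora kinase, rose by 0.55, Nek2, which acts in centrosome separation, by 0.55, and Melk by 0.43.

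The chromosomal passenger complex, which corrects wrong attachments at the centromere and then moves to the midzone, rose in 4 of 4 genes with a median of 0.57. Aurkb, its kinase, was at 192.7, 128.0 and 142.9 CPM in homozygous KO, 129.7, 128.1 and 118.2 CPM in heterozygous KO and 116.5, 121.5, 105.0 and 118.9 CPM in wild type. The homozygous KO and heterozygous KO libraries overlapped, and the log2 fold change against wild type was 0.42 ± 0.12 (adjusted p = 0.0204), a call that ended without wild type 3 (adjusted p = 0.0538). Birc5 (survivin), which ties the kinase to the centromere, was at 216.3, 152.3 and 169.7 CPM in homozygous KO, 124.4, 131.2 and 121.2 CPM in heterozygous KO and 108.2, 112.0, 106.6 and 114.0 CPM in wild type. Its groups did not overlap, the log2 fold change was 0.70 ± 0.096 (adjusted p = 0.00037), and the call held in all 19 alternatives. Incenp, the scaffold, rose by 0.55, and Cdca8 (borealin) by 0.58.

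The spindle assembly checkpoint genes rose in 4 of 4, with the lowest median of the roles, 0.44. Bub1b (BubR1), a subunit of the complex that inhibits Cdc20, was at 438.9, 312.9 and 363.7 CPM in homozygous KO, 312.3, 298.9 and 290.2 CPM in heterozygous KO and 287.6, 301.2, 263.1 and 273.1 CPM in wild type. Homozygous KO 2 was close to the highest heterozygous KO library, and the log2 fold change against wild type was 0.40 ± 0.096 (adjusted p = 0.0103). Mad2l1, which encodes Mad2 of the same inhibitory complex, was at 173.0, 116.3 and 127.8 CPM in homozygous KO, 118.3, 117.4 and 116.1 CPM in heterozygous KO and 103.9, 99.99, 93.9 and 101.2 CPM in wild type. It was called in homozygous KO against wild type (0.48 ± 0.11, adjusted p = 0.00769), and homozygous KO 2 lay inside the heterozygous KO range. Ttk (Mps1), the kinase that starts the checkpoint, rose by 0.55, and Bub1 by 0.39. The call on Bub1 ended without homozygous KO 1 (adjusted p = 0.0549) and without wild type 3 (adjusted p = 0.0519).

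Of the centromere and kinetochore genes 5 of 6 rose, with a median of 0.53. Cenpe, a kinesin that carries chromosomes to the metaphase plate, was at 504.8, 336.0 and 389.4 CPM in homozygous KO, 316.4, 284.7 and 254.4 CPM in heterozygous KO and 284.3, 278.8, 245.8 and 251.9 CPM in wild type. No homozygous KO library overlapped another group, and the log2 fold change against wild type was 0.63 ± 0.12 (adjusted p = 0.00347). Cenpf rose by 0.61, Cenpa, the histone H3 variant that defines the centromere, by 0.47, and Ndc80 and Nuf2 by 0.58 and 0.49. Ndc80, Nuf2 and Spc25 belong to 1 complex, which binds microtubules, and Spc25 was not called. It was at 115.5, 64.7 and 81.3 CPM in homozygous KO, 83.4, 77.4 and 66.3 CPM in heterozygous KO and 71.8, 69.2, 64.3 and 66.5 CPM in wild type. Homozygous KO 2 was among the lowest libraries, and the log2 fold change was 0.36 ± 0.16 (adjusted p = 0.115). Without homozygous KO 2 Spc25 was called (0.54, adjusted p = 0.0138).

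The spindle kinesins and microtubule-associated proteins rose in 10 of 10 genes, with a median of 0.56. Gtse1, a microtubule-tracking protein that also binds p53, was at 130.8, 102.8 and 107.9 CPM in homozygous KO, 64.5, 69.3 and 58.4 CPM in heterozygous KO and 58.3, 59.7, 56.4 and 57.4 CPM in wild type. Its homozygous KO libraries were far above the other groups and close to each other, and its log2 fold change was 0.97 ± 0.084 (adjusted p = 1.65e-05), the largest of the 54. Across the 19 alternatives it stayed between 0.86 and 1.05. Tpx2, which activates Aurora A and nucleates microtubules, was at 441.4, 326.6 and 370.8 CPM in homozygous KO, 290.2, 294.6 and 266.1 CPM in heterozygous KO and 249.8, 259.5, 239.8 and 244.0 CPM in wild type. The groups did not overlap, in the order homozygous KO, heterozygous KO, wild type, and the log2 fold change was 0.61 ± 0.086 (adjusted p = 0.000468). Kif11 (Eg5), the motor that pushes the spindle poles apart, was at 885.5, 650.3 and 746.5 CPM in homozygous KO, 616.1, 623.0 and 566.6 CPM in heterozygous KO and 561.3, 580.3, 469.6 and 547.8 CPM in wild type. Wild type 3 was its lowest library, the homozygous KO libraries overlapped no other group, and the log2 fold change was 0.50 ± 0.10 (adjusted p = 0.00444).

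Of the other genes of that role, Kif18b rose by 0.72, Kif4 by 0.65, Ckap2 by 0.59, Hmmr by 0.53, Kif2c by 0.46, Nusap1 by 0.43 and Kif15 by 0.41 on the log2 scale. Kif2c (MCAK) and Kif18b act on the ends of microtubules, Kif4 and Kif15 are further mitotic motors, and Nusap1, Hmmr and Ckap2 bind spindle microtubules. Without homozygous KO 1, Kif2c (adjusted p = 0.102), Nusap1 (adjusted p = 0.109) and Kif15 (adjusted p = 0.0805) were not called, and these 3 calls also ended without wild type 3, with adjusted p of 0.0532, 0.0811 and 0.0649. Kif2c and Nusap1 also lost their call without wild type 1, 2 or 4 (adjusted p of 0.0519 to 0.0735), Kif15 without wild type 4 (adjusted p = 0.0507) and Nusap1 without heterozygous KO 2 (adjusted p = 0.0502).

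All 7 cytokinesis genes rose, with a median of 0.55. Racgap1 and Kif23 form the centralspindlin complex of the midzone, and they rose by 0.63 and 0.35, the largest and the smallest changes of this role. Kif20a (MKLP2) rose by 0.60, Anln (anillin), which organises the contractile ring, by 0.56, and Prc1, which bundles midzone microtubules, by 0.55. Kif20b rose by 0.48 and Ect2, the exchange factor that activates RhoA at the cleavage site, by 0.47. The call on Kif23 ended without homozygous KO 1 (adjusted p = 0.0512).

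Of the 4 genes of anaphase onset 3 rose. Cdc20, which activates the anaphase-promoting complex, was at 269.7, 194.9 and 217.4 CPM in homozygous KO, 161.0, 168.6 and 151.3 CPM in heterozygous KO and 143.9, 150.7, 145.8 and 148.7 CPM in wild type. The wild types lay within a narrow range, the groups did not overlap, and the log2 fold change was 0.63 ± 0.090 (adjusted p = 0.00052). Ube2c, the ubiquitin-conjugating enzyme of that complex, was at 270.5, 192.9 and 215.7 CPM in homozygous KO, 171.0, 187.4 and 167.5 CPM in heterozygous KO and 151.7, 157.3, 145.0 and 154.0 CPM in wild type. These groups did not overlap either, and the log2 fold change was 0.57 ± 0.095 (adjusted p = 0.00128). Espl1 (separase), the protease that cuts cohesin, rose by 0.47, with homozygous KO 2 at 158.6 CPM below wild type 2 at 161.6 CPM.

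Pttg1 (securin), the inhibitor of separase, did not follow the others. It was at 14.5, 14.2 and 35.9 CPM in homozygous KO, 11.9, 12.6 and 24.6 CPM in heterozygous KO and 13.6, 12.4, 25.8 and 21 CPM in wild type. In each group the libraries numbered 1 and 2 were low and those numbered 3, and 4 in wild type, were higher. The groups overlapped almost fully, the log2 fold change was 0.23 ± 0.38 (adjusted p = 0.69), and without homozygous KO 3 it was -0.34 (adjusted p = 0.531). At 9.10 CPM per kb of exon in wild type it stood below all but Ttk and Cdc25c of the 54 genes per length.

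The condensin and chromosome structure genes rose in 6 of 7, with a median of 0.46. Mki67 (Ki-67), which coats mitotic chromosomes and serves as a proliferation marker, was at 3632, 2713 and 3072 CPM in homozygous KO, 2815, 2337 and 2099.7 CPM in heterozygous KO and 2349, 2440.3, 1713 and 2279 CPM in wild type. Wild type 3 was the lowest library, homozygous KO 2 lay below heterozygous KO 1, and the log2 fold change was 0.52 ± 0.14 (adjusted p = 0.0197). That call ended without homozygous KO 1 (0.395, adjusted p = 0.0711). Top2a, the topoisomerase that untangles sister chromatids, was at 2759.8, 1962 and 2188 CPM in homozygous KO, 1972, 2024 and 1825 CPM in heterozygous KO and 1802, 1824, 1558 and 1732 CPM in wild type. Homozygous KO 2 lay inside the heterozygous KO range and above all wild types, and the log2 fold change was 0.41 ± 0.10 (adjusted p = 0.0141).

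Smc2 and Smc4, the core of both condensins, rose by 0.52 and 0.39. The condensin I subunits Ncapd2 and Ncaph rose by 0.47 and 0.46, while Ncapg, of the same complex, was not called (0.41 ± 0.15, adjusted p = 0.0619). Ncapg was at 210.7, 124.7 and 149.3 CPM in homozygous KO, 137.7, 127.5 and 120.7 CPM in heterozygous KO and 135.3, 128.4, 112.7 and 111.3 CPM in wild type. Homozygous KO 2 lay inside the wild-type range, and Ncapg was called without it (0.571, adjusted p = 0.0101) and with DESeq2 (adjusted p = 0.0314).

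Both transcription factors of the program rose. Foxm1 was at 320.2, 198.7 and 246.4 CPM in homozygous KO, 186.1, 183.3 and 160.6 CPM in heterozygous KO and 167.7, 172.4, 166.4 and 165.1 CPM in wild type. The homozygous KO libraries overlapped no other group, and the log2 fold change was 0.60 ± 0.12 (adjusted p = 0.00453). Mybl2 (B-Myb) was at 123.8, 88.9 and 101.8 CPM in homozygous KO, 78.8, 73.8 and 69.9 CPM in heterozygous KO and 67.7, 70.5, 68.9 and 72.1 CPM in wild type. It separated the homozygous KO libraries from the rest as well, with a log2 fold change of 0.59 ± 0.093 (adjusted p = 0.00101), and both calls held in all 19 alternatives.

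**Figure D2:**
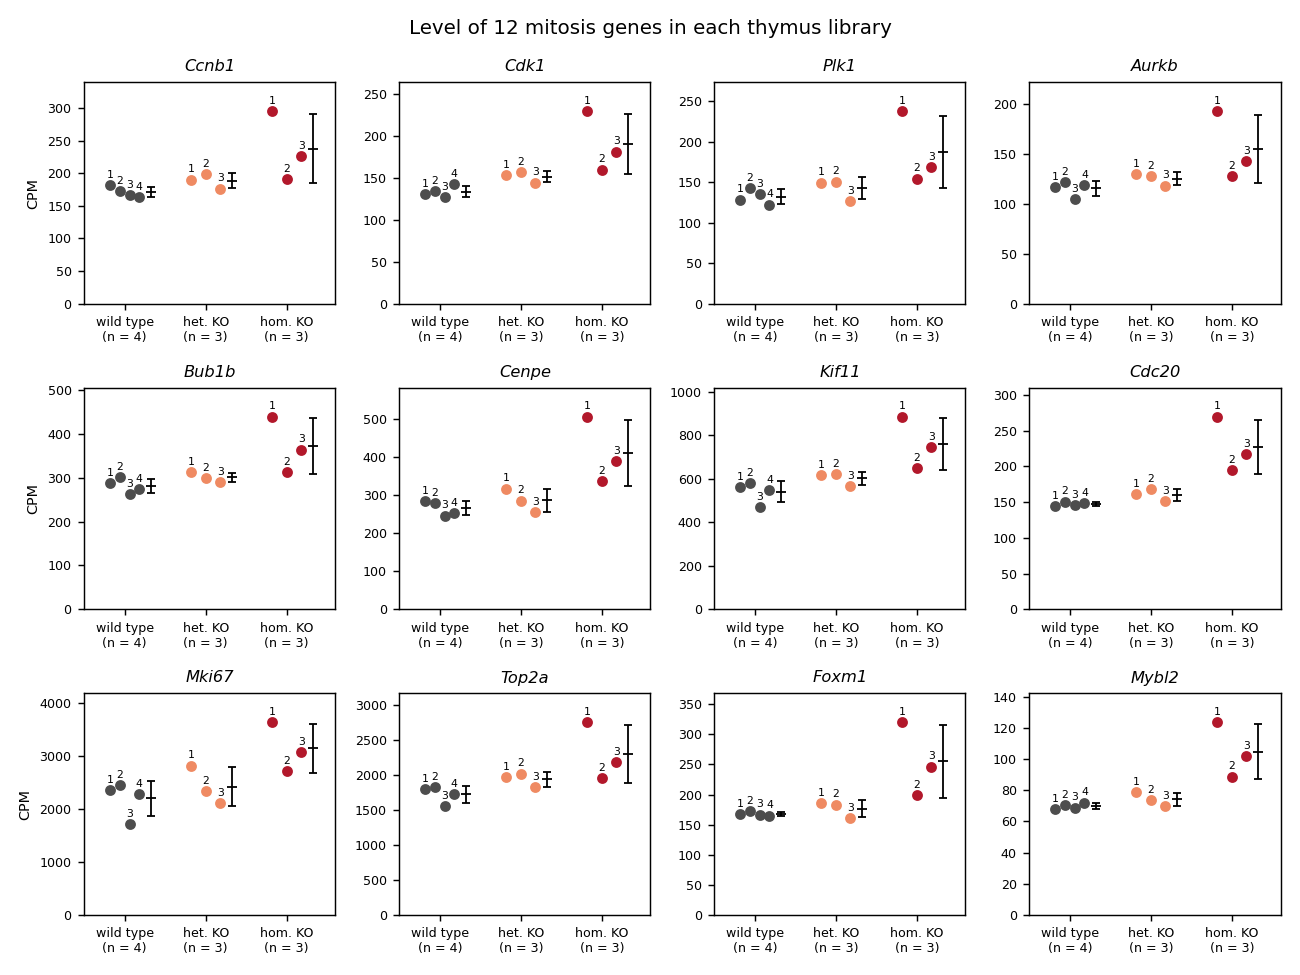
CPM of 12 of the genes, 2 or fewer of each role, in every library (points, with the replicate number), with the mean ± SD of each group as a bar beside the points and the axis from 0. In all 12 panels homozygous KO 1 is the highest point, followed by homozygous KO 3.

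The levels per length gave an order in which the structural genes led. In wild type, Mki67 stood at 218 CPM per kb of exon, Top2a at 192, Smc4 at 145 and Ncapd2 at 114, followed by Ccnb2 at 89.1 and Cdc20 at 78.8. At the other end were Nuf2 at 10.3, Pttg1 at 9.10, Ttk at 7.71 and Cdc25c at 5.12 CPM per kb. Exon lengths are the union of the exons in GENCODE M21, which may differ from the annotation used for counting, so this order is approximate and no neighbours in it were tested.

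In the homozygous KO group the size of the rise differed between libraries, and in the same order for nearly every gene. The median log2 ratio of the 54 genes to the wild-type geometric mean was 0.82 in homozygous KO 1, 0.48 in homozygous KO 3 and 0.24 in homozygous KO 2. The order 1, 3, 2 held in 52 of the 54 genes. Homozygous KO 1 was the highest of all 10 libraries in 53 of the 54, the exception being Pttg1. The median over the heterozygous KO libraries was 0.18, 0.19 and 0.04, and over the wild types it was 0.04, 0.06, -0.08 and -0.01. Homozygous KO 2 thus stood close to heterozygous KO 1 and 2 in this measure. The median over the tested genes with counts in every library stayed between -0.02 and 0.01 in each library.

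**Figure D3:**
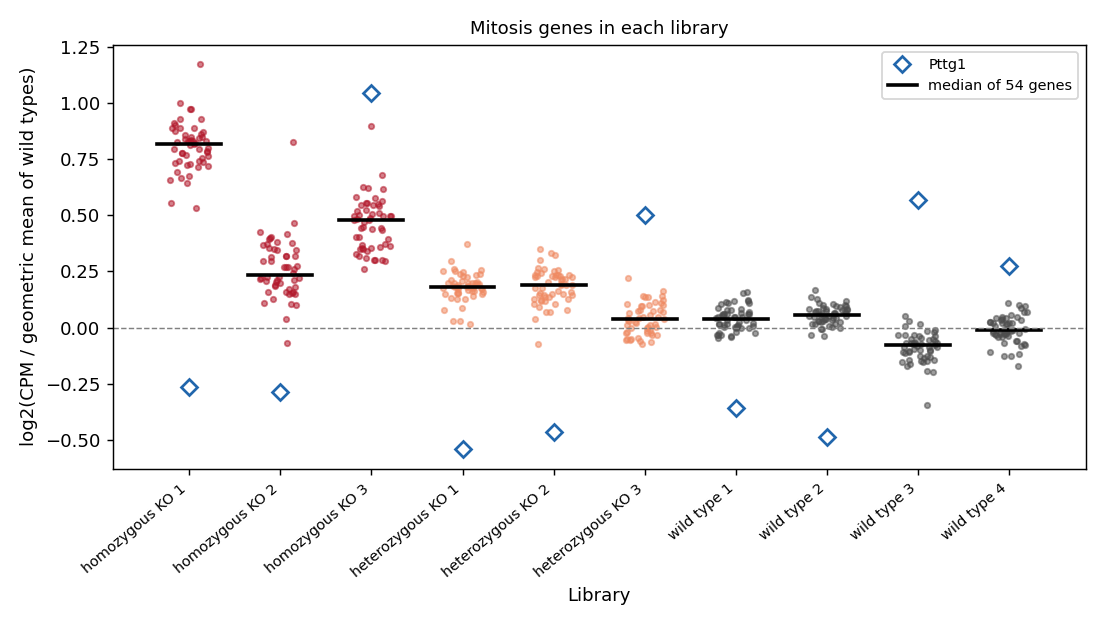
Log2 ratio of CPM to the wild-type geometric mean for each of the 54 genes (points) in each library, with the median of the 54 genes as a black line and Pttg1 as a diamond. The points of homozygous KO 1 centre on 0.82 and those of homozygous KO 2 on 0.24. Pttg1 is the lowest point in libraries 1 and 2 of every group, at -0.54 in heterozygous KO 1 and -0.49 in wild type 2.

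The numbers that the titles give beside the replicate number fall into 44 to 51 and 56 to 63, a split made with the data known, and no label calls it a batch. Within the first, the median log2 difference of homozygous KO (1 library) from wild type (3 libraries) was 0.80. Within the second, with 2 homozygous KO libraries and 1 wild type, it was 0.35, and all 54 differences were above 0. For heterozygous KO the medians were 0.18 and 0.12. No test was run within either range. In 1 fit over all libraries with the range as a term, 53 of the 54 genes were called in homozygous KO against wild type and none in heterozygous KO against wild type.

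In heterozygous KO none of the 54 genes was called against wild type, in a comparison that called 0.0154% of all tested genes. DESeq2 called none either. Only Tpx2 of the 54 had an unadjusted p under 0.05 in edgeR, against 7.28% of all tested genes, and none of the 54 had one in DESeq2. The log2 fold change was above 0 for 53 of the 54 genes, with a median of 0.13 against -0.01 over all tested genes, and the largest was 0.23 ± 0.11 for Mad2l1 (adjusted p = 0.688). In 18 of the 54 genes all 3 heterozygous KO libraries lay above all 4 wild types, which held for 4.41% of all tested genes. These 18 include Cdk1, Cdc20, Ube2c, Tpx2, Mad2l1, Birc5 and Top2a, whose values are given above. The values were 0.19 ± 0.087 for Tpx2 (adjusted p = 0.685), 0.21 ± 0.095 for Ube2c (adjusted p = 0.688) and, as the single value below 0, -0.16 ± 0.39 for Pttg1 (adjusted p = 0.953). The median SE of the 54 log2 fold changes was 0.109.

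Homozygous KO was also compared with heterozygous KO, which tests whether the knockout of both alleles differs from that of 1 allele. Of the 54 genes 25 were higher in homozygous KO and none lower, in a comparison that called 17.1% of all tested genes, 7.63% as higher and 9.5% as lower. The log2 fold change was above 0 for 54 of 54, with a median of 0.38 against 0.00 over all tested genes. In 31 of the 54 all homozygous KO libraries lay above all heterozygous KO libraries, which held for 16.5% of all tested genes. By role, 5 of 10 spindle genes, 5 of 7 cytokinesis genes and 3 of 4 passenger complex genes were called. So were 3 of 6 centromere and kinetochore genes and both transcription factors. Calls fell on 2 of 6 cyclin and Cdk1 genes, 2 of 4 anaphase genes and 2 of 7 condensin and chromosome structure genes. They fell on 1 of 4 kinases and none of the 4 checkpoint genes. The roles were not tested against each other. DESeq2 called 10 further genes, among them Ccnb2, Cdk1, Cdc25c, Plk1, Bub1b and Ttk.

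The smallest p belonged to Gtse1 (0.83 ± 0.091, adjusted p = 0.000121), Cdc20 (0.50 ± 0.097, adjusted p = 0.00449) and Birc5 (0.51 ± 0.10, adjusted p = 0.00578). With Mybl2, Kif18b, Kif20a and Ckap2 these 3 make up the 7 genes called in all 17 alternatives. The count turned on single libraries: it was 8 without heterozygous KO 3, 14 without heterozygous KO 1, 16 without heterozygous KO 2 or without homozygous KO 1, and 49 without homozygous KO 2. With a fit on these 2 groups alone 12 genes were called. For these fits too, the share of all tested genes called is not given here.

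**Figure D4:**
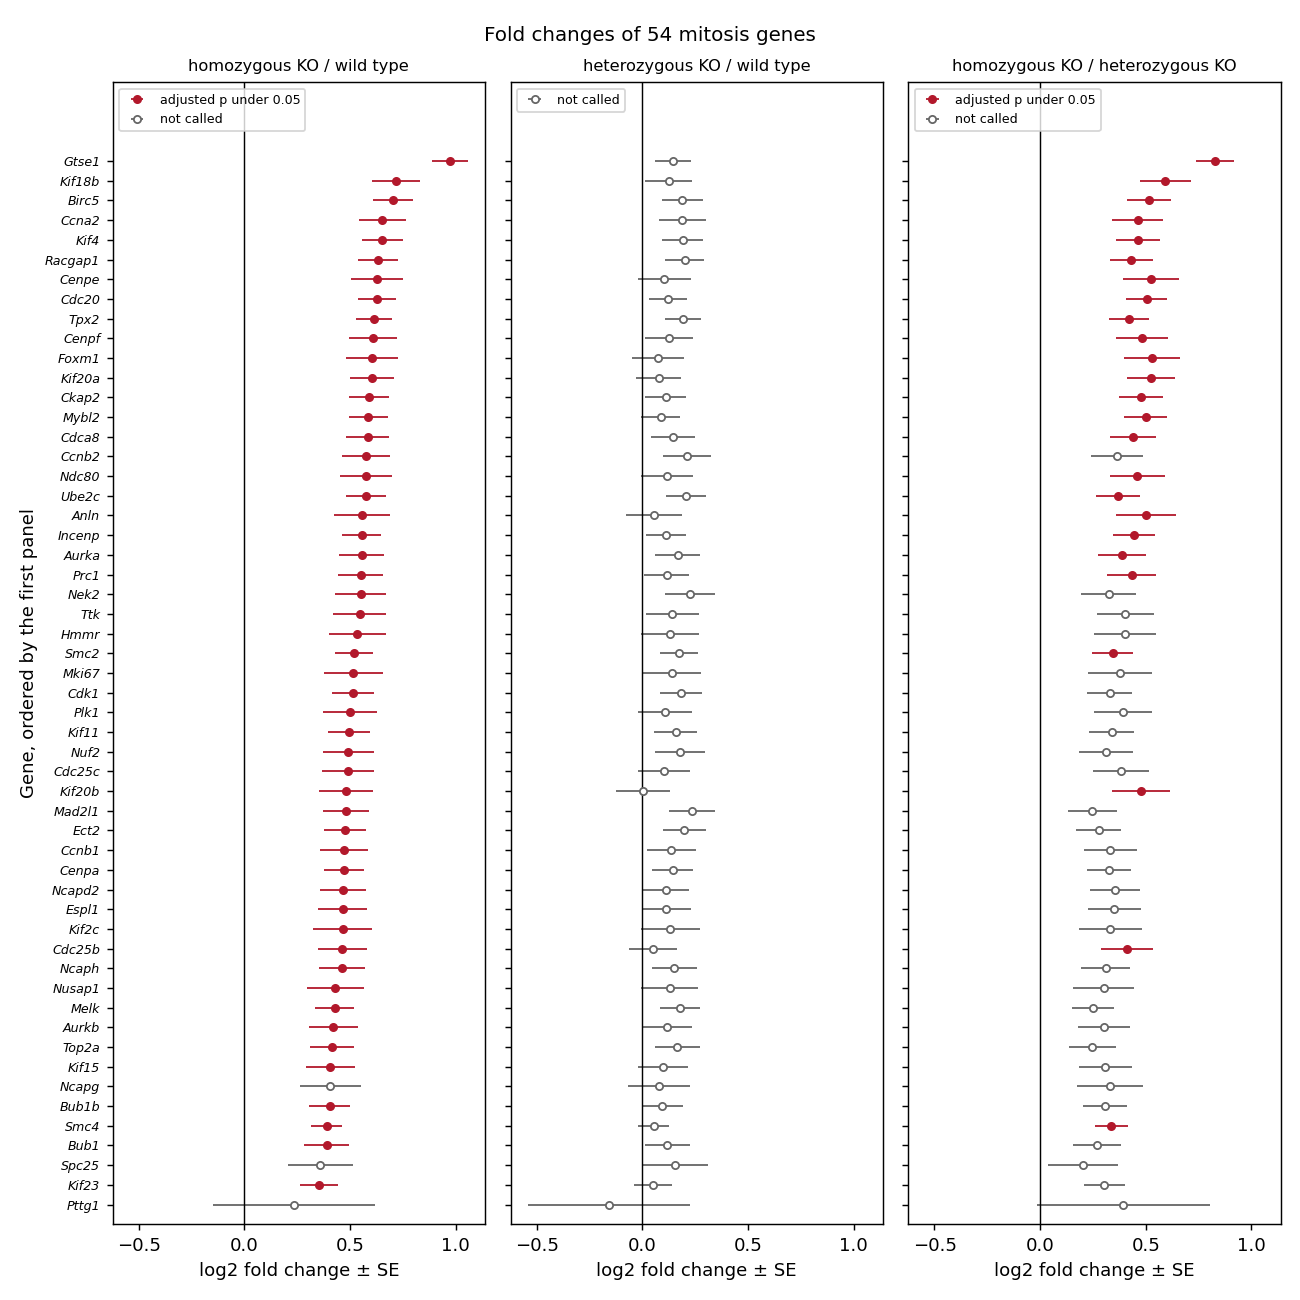
Log2 fold change ± SE of the 54 genes in the 3 comparisons, ordered by homozygous KO against wild type. Filled points are called at an adjusted p under 0.05: 51 genes in the first panel, none in the middle panel and 25 in the last.

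Other mitotic genes, from lists written from general knowledge, moved in part with the 54. Of 109 such genes 52 were higher in homozygous KO against wild type, 1 was lower and 56 were not called, with a median log2 fold change of 0.35. None of the 109 was called in heterozygous KO against wild type. The spindle and cytokinesis list came nearest to the 54, with 17 of 26 higher and a median of 0.48. Tacc3, which stabilises kinetochore fibres, rose by 0.72 (adjusted p = 0.000189), Kifc1, a minus-end motor, by 0.58, and Dlgap5 by 0.55. Of the other G2/M kinases and regulators 12 of 21 were higher, among them Cdc25a (0.36), the checkpoint protein gene Bub3 (0.36) and Trip13 (0.41).

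Of the other kinetochore and centromere genes 9 of 26 were higher and 17 not called, with a median of 0.35. Pmf1, of the Mis12 complex, rose by 0.49, Cenpl by 0.46 and Mis18a, which helps to load Cenpa, by 0.35. Cohesin and its regulators were higher in 8 of 16, with Rad21 at 0.43, Smc3 at 0.32 and Pds5a at 0.31, and the median was 0.23. Condensin II was higher in 2 of 3 genes (Ncaph2 0.39, Ncapg2 0.43), and Ncapd3 was not called (0.28, adjusted p = 0.0521). The call on Ncapg2 ended without homozygous KO 1 or 3, or without wild type 2, 3 or 4 (adjusted p of 0.0539 to 0.129). The anaphase-promoting complex list stood lowest, with 4 of 17 higher, 1 lower (Cdc26, named after its value was seen) and a median of 0.12. Its members with the smallest p were Ube2s (0.52), Anapc5 (0.35) and Fbxo5 (Emi1, 0.56), and of these only Anapc5 is a core subunit.

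Among the DREAM, MuvB and E2F regulators 11 of 22 were higher, 2 lower (E2f5 and Tfdp2, named after their values were seen) and 9 not called, with a median of 0.24. Cdkn1a (p21), a p53 target whose product inhibits cyclin-dependent kinases, was at 46, 42.1 and 33.5 CPM in homozygous KO, 6.72, 7.45 and 9.2 CPM in heterozygous KO and 4.64, 5.92, 6.99 and 8.08 CPM in wild type. It rose by 2.65 ± 0.18 on the log2 scale (adjusted p = 3.74e-06), with no overlap between homozygous KO and the other groups. Nfya and Nfyc, subunits of the CCAAT-binding NF-Y, rose by 0.46 and 0.25.

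**Figure D5:**
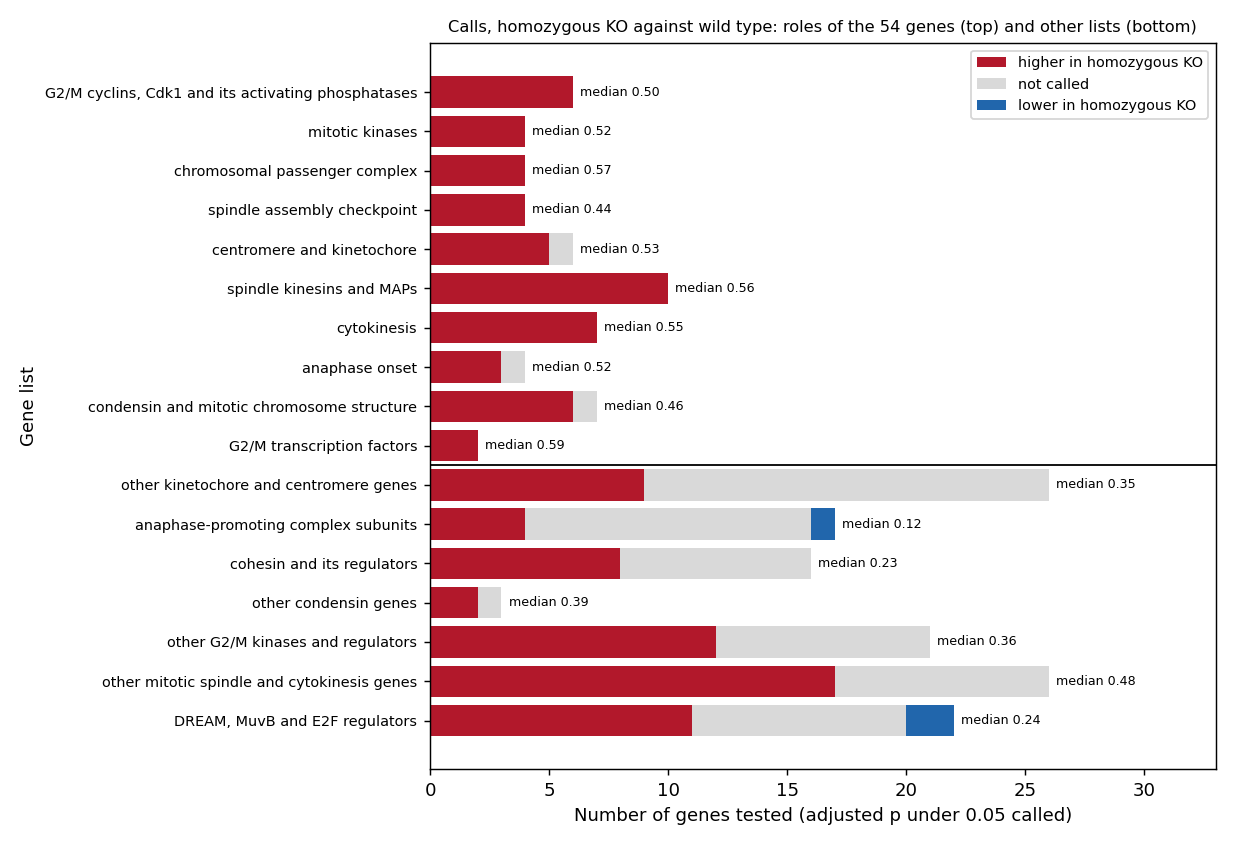
Number of genes called higher (red), not called (grey) or called lower (blue) in homozygous KO against wild type, for the 10 roles of the 54 genes above the line and 7 other lists below it, with each list's median log2 fold change. The roles of the 54 genes are nearly all red, while of the anaphase-promoting complex list 4 of 17 were higher.

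Cell type markers moved between the same groups, and their part in the mitotic result was not tested. Mature single-positive markers were lower in 6 of 8 genes and higher in 1 (Runx3), with summed levels of 215 to 265 CPM in homozygous KO, 350 to 377 CPM in heterozygous KO and 339 to 467 CPM in wild type. Il7r, which is also on the double-negative list, was at 11.7, 12.6 and 7.34 CPM in homozygous KO and 44.6, 39.8, 52.9 and 27.6 CPM in wild type, and Klf2 and Zbtb7b fell as well (-1.58 and -3.03). Double-positive markers were higher in 2 of 8 and lower in 2 (Rag1 and Cd1d1), with sums of 7732 to 7956 CPM in homozygous KO, 8952 to 9651 CPM in heterozygous KO and 9161 to 10500 CPM in wild type, and Rag1 fell on the log2 scale (-0.85) while Arpp21 and Cd8a rose (0.38 and 0.26). Double-negative markers were higher in 2 of 8 (Notch3 and Dtx1) and lower in 3 (Il7r, Cd44 and Kit), with sums of 616, 1474 and 1061 CPM in homozygous KO 1, 2 and 3, 554 to 650 CPM in heterozygous KO and 529 to 757 CPM in wild type. Notch3, of that list, was at 385.3, 715.2 and 607.4 CPM in homozygous KO and 255.9, 262.6, 257.4 and 211.6 CPM in wild type, and Cd44 fell (-1.35).

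Non-thymocyte markers moved too. B cell markers were lower in 6 of 8 genes, with sums of 299 to 344 CPM in homozygous KO, 348 to 369 CPM in heterozygous KO and 335 to 399 CPM in wild type. The sums show little of this: the median log2 fold change of the 8 genes was -3.19, with values from -9.13 to -0.02. Cd79b fell by 1.64 on the log2 scale, and Ms4a1 and Pax5 were at 0 in 1 homozygous KO library each. Myeloid markers were lower in 6 of 8, with sums of 53.9 to 101.5 CPM in homozygous KO, 91.8 to 127 CPM in heterozygous KO and 106 to 133 CPM in wild type, and Csf1r, C1qa and C1qb were among them (-1.45, -2.37 and -1.54). Neutrophil markers were higher in 6 of 8, with sums of 55.97, 312 and 148 CPM in homozygous KO 1, 2 and 3, 6.45 to 12.2 CPM in heterozygous KO and 7.90 to 24.4 CPM in wild type. Lcn2 was at 4.43, 28.8 and 16.6 CPM in homozygous KO, and Lcn2, Ltf and Camp had log2 fold changes of 4.35, 3.89 and 3.46.

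The neutrophil sum, the double-negative sum and its member Notch3 were thus lowest in homozygous KO 1 and highest in homozygous KO 2. This is the reverse of the order of the mitotic genes in that group. The myeloid, fibroblast and endothelial sums and Usp7 had the same reverse order, while the other marker sums did not. With 3 libraries this is a description only. Markers of erythroid cells, whose precursors divide, were higher in 2 of 10 (Klf1 2.63, Epor 1.27), with sums of 370.5 to 2274 CPM in homozygous KO, 378 to 748 CPM in heterozygous KO and 566 to 1894 CPM in wild type. Slc4a1, next by p in that list, was not called (adjusted p = 0.0643). Stromal markers moved in both directions. Of 7 epithelial markers tested 2 were higher (Krt5 2.77, Krt14 2.39) and 1 lower (Aire -2.37), with sums of 43.3 to 118 CPM in homozygous KO, 39.95 to 78.7 CPM in heterozygous KO and 41.4 to 61.03 CPM in wild type. Of 8 fibroblast markers 4 were higher, Col1a2 and Col3a1 among them (1.66 and 1.55), and 1 was lower (Pdgfrb -0.85), with sums of 19.4 to 55.4 CPM in homozygous KO, 26.5 to 30.0 CPM in heterozygous KO and 27.4 to 38.4 CPM in wild type. Of 7 endothelial markers tested 2 were higher (Tie1 2.501, Vwf 2.35) and 1 lower (Eng -1.04), with sums of 164 to 174 CPM in homozygous KO, 156 to 167 CPM in heterozygous KO and 164 to 182 CPM in wild type. Several of these stromal calls rested on single libraries. Krt14 was not called without homozygous KO 3 (adjusted p = 0.0559), nor Col1a2 without homozygous KO 2 (adjusted p = 0.11). Col3a1 lost its call without homozygous KO 2 or wild type 1 or 3 (adjusted p of 0.0525 to 0.103), and Pdgfrb without homozygous KO 3 or wild type 1 or 3 (adjusted p of 0.0591 to 0.0787). Vwf lost it without homozygous KO 2 or wild type 1 or 4 (adjusted p of 0.0501 to 0.162), and Tie1 without homozygous KO 2 or wild type 3 or 4 (adjusted p of 0.0552 to 0.145).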

How the data were processed

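The authors deposited 1 table of raw read counts per gene for the 10 mouse thymus libraries. The submitters' processing notes name CASAVA, STAR 2.4.1d, HTSeq 0.6.1p1 and the build mm9 (NCBIM37). The study's methods describe a BWA-based pipeline with HTSeq, but the reference they state is for human samples. The annotation and the strand setting are not given in the sources used here. Without the strand setting, reads of antisense or overlapping genes cannot be told apart. Symbols came from GENCODE M21 and promoter sequences from RefSeq (GRCm38.p6), a build other than that of the files. Features without an Ensembl identifier (908) held 1.74% to 2.29% of the counts.

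Counts were fitted with edgeR 4.0.16 (R 4.3.3; TMM, filterByExpr, glmQLFit, glmQLFTest) in 1 fit over the 10 libraries and 3 groups, with Benjamini-Hochberg adjustment over 19511 features at 0.05. SE is the absolute log2 fold change over the square root of F. The fit was also run on simulated counts that had less spread between libraries than these. That run checks how the fit was set up and does not bear on the calls given here. Separate animals are not stated in the labels beyond the numbers in the titles, and p-values measure the spread between these libraries. No pair of libraries in a group agreed within sampling noise (chi-square per degree of freedom of at least 13.5). The 54 genes, the roles and the other lists were chosen with earlier results of these data known. Every one of the 54 is named. Values per library are given for 12 that stand for the roles (Mki67, Top2a, Ccnb1, Cdk1, Plk1, Aurkb, Bub1b, Cenpe, Kif11, Cdc20, Foxm1, Mybl2) and for the 3 with the smallest p in each direction and comparison, and in other lists the 3 with the smallest p in homozygous KO against wild type are named, except 1 B cell marker that is not reported here. Values per library of Spc25, Ncapg and part of Espl1 were added after they were seen. Alternatives were DESeq2 1.42.0, scaling by totals, no filter, a replicate block, leaving out each library, a term for the title numbers, Xist as a covariate, each wild-type title form alone and the compared groups alone.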

Additional observations from a re-analysis of the deposited data

Results flagged for a closer look

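Among the 54 genes, tested for a lone library in the wild-type group of 4 (groups of 3 were not tested), 2 values stood apart by Dixon's criterion. Chance alone gives about 1 in 20 such groups. Kif4 was at 108.4 CPM in wild type 3, below the 119.5 to 120.9 CPM of the other wild types. Espl1 was at 161.6 CPM in wild type 2, above the 141.4 to 143.2 CPM of the others. Both genes were called higher in homozygous KO against wild type, at log2 fold changes of 0.65 and 0.47.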

How the results depend on the processing

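Homozygous KO against wild type called 27 of the 54 genes with only the wild types of 2 wt words in the title as controls, against 51 in the reported fit, and 37 with only those of 1 wt word. It called 52 with DESeq2, 46 with scaling by library totals, 51 without the filter, 53 with the title-number term, 44 with Xist as a covariate, 48 with the 2 groups alone, and 45 to 53 with 1 library left out. The direction was upward in every one of these calls. The share of all tested genes called is not given for the alternatives. A loss of calls particular to the 54 genes therefore cannot be told from a general one by these counts. Of the 51 genes, 27 were called in all 19 alternatives. With part of the wild types as controls the median log2 fold change was 0.467 (2 wt words) and 0.57 (1 wt word). The median log2 fold change was 0.419 with library totals, where the median of all genes was -0.109, 0.586 with the title-number term, and 0.361 (without homozygous KO 1) to 0.63 (without homozygous KO 2) with 1 library left out. In heterozygous KO the median, 0.131 in the reported fit, was 0.206 with the title-number term, 0.187 with the wild types of 1 wt word, 0.0941 with Xist as a covariate and 0.085 with the wild types of 2 wt words, and no alternative called a gene.

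Homozygous KO against heterozygous KO called 12 genes with the 2 groups alone, against 25, and 8 (without heterozygous KO 3) to 49 (without homozygous KO 2) with 1 library left out. DESeq2 called 35 and the title-number term 37. The median was 0.292 with library totals and 0.209 to 0.5 with 1 library left out. The difference in Usp7 between the knockouts lost its call with Xist as a covariate (-0.413, adjusted p = 0.0569) and with the 2 groups alone (-0.418, adjusted p = 0.0614). With 1 library left out it ran from -0.496 to -0.282, and the call ended without heterozygous KO 2 (adjusted p = 0.0765) or 3 (adjusted p = 0.0915).

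Values that changed sign belonged to genes that were not called. For Pttg1 these were, in homozygous KO against wild type, -0.039 with the title-number term and -0.123 with the wild types of 1 wt word, with -0.344 to 0.464 for 1 library left out. In homozygous KO against heterozygous KO they were -0.0464 with Xist as a covariate, with -0.191 to 0.809 for 1 library left out. In heterozygous KO against wild type they were 0.516 with Xist as a covariate and 0.335 with the wild types of 2 wt words, with -0.574 to 0.0582 for 1 library left out. Spc25 in homozygous KO against heterozygous KO ran from -0.0608 to 0.382 with 1 library left out, the lowest without homozygous KO 1. The cause of these changes was not tested.

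Replicate numbers in the titles do not say what is shared, and the deviations of same-numbered libraries correlated at -0.123 to 0.235 over the 9 pairs of groups and numbers. With a replicate block 49 genes were called in homozygous KO against wild type, 0 in heterozygous KO against wild type and 23 in homozygous KO against heterozygous KO. The smallest count of any of the 54 genes was 515.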
